A study of Mus musculus with 27 samples.

Results

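The LDB1 complex genes are 9 genes taken by symbol in each of the 5 RNA-Seq tables of this series, *Ldb1*, *Gata1*, *Tal1*, *Lmo2*, *Lmo4*, *Tcf3*, *Tcf12*, *Ssbp2* and *Ssbp3*. All 9 were listed in every table, among 20602 genes listed in any table and 14558 listed in all 5, and all 9 passed the filter on low counts in every comparison. RNA was sequenced from MEL cells, a mouse erythroleukaemia line that is arrested at an erythroid progenitor stage and can be induced to mature; every library came from this 1 line. The groups were *Cbfa2t3* KD (gene of ETO2; hairpins sh2 and sh3 with 2 libraries each, against 2 controls), *Irf2bp2* KD (hairpin sh1, 2 libraries against 2 controls), *Kdm1a* KD (gene of LSD1; 2 libraries against 1 control), *Gfi1b* KD (siRNA, 2 libraries against 2 controls), and 2 induced against 2 non-induced MEL libraries. The labels call the controls WT, and by the methods these cells received non-targeting constructs, so that control and KD cells alike carry the transduction or transfection. The labels do not give the agent or the time of induction. A list of ETO2 and IRF2BP2 binding sites in non-induced cells was also analysed.

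LDB1 is a dimerizing adaptor without DNA-binding activity of its own. It is tethered to DNA through the LIM-only protein LMO2 (or its relative LMO4), which bridges LDB1 to GATA1 and to a heterodimer of TAL1 with an E protein, E2A (gene *Tcf3*) or HEB (gene *Tcf12*). The single-stranded DNA binding proteins SSBP2 and SSBP3 bind LDB1 and protect it from degradation. In erythroid cells the assembled complex occupies composite elements, a partial E-box followed by a GATA site, and it drives the late erythroid programme, whereas ETO2 and its partner IRF2BP2 join it as corepressors in progenitors.

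Composite E-box/GATA motifs were found in sites listed at the genes of the complex, and all 10 matches in sites occupied by ETO2 that were listed at these genes are shown because they give the DNA that such a complex is known to recognise, at its own genes. The motif was searched over the whole of each site on both strands as CTG, a spacer of 6 to 8 bases, A or T, GATA, and A or G. *Gata1* match 1, *Gata1* match 4 and the *Lmo2* match lie 513, 1516 and 100 bp from the centres of their sites. These are not wholly within 100 bases of the centre, and the other matches shown are. Capitals mark the match, 10 flanking bases are given to each side, and the sequences were read 5′ to 3′ on the strand of the motif from mm9. The *Gata1* matches lie at chrX:7541875-7541909, chrX:7543448-7543483 and chrX:7547077-7547111 (minus strand) and chrX:7545548-7545583 (plus strand), all 4 in sites shared by ETO2 and IRF2BP2 and numbered by position, and at chrX:7570659-7570695 (plus strand) in an upstream ETO2-only site. The others lie at chr4:114768560-114768596 (plus strand, shared, 39471 bp downstream of the *Tal1* start), chr2:103733958-103733993 (minus strand, shared, upstream of *Lmo2*), chr3:144019206-144019241 and chr3:144019248-144019283 (plus strand, both in 1 shared site upstream of *Lmo4*), and chr4:106595733-106595769 (minus strand, ETO2-only, in an intron of *Ssbp3*).
Gata1, match 1: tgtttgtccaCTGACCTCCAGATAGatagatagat
Gata1, match 2: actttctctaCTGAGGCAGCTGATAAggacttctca
Gata1, match 3: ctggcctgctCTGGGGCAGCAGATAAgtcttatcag
Gata1, match 4: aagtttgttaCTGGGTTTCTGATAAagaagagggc
Gata1, upstream: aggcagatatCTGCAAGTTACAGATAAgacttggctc
Tal1, downstream: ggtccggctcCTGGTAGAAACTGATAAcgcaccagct
Lmo2, upstream: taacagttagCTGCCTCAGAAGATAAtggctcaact
Lmo4, upstream, first match: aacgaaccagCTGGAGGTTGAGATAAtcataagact
Lmo4, upstream, second match: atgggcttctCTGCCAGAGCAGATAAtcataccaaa
Ssbp3, intronic: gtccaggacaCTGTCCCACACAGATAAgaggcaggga
The GATA portion ends in A in 9 of these 10 matches and in G in *Gata1* match 1. Another 2 matches lay in IRF2BP2-only sites. A match is a description of these letters and was not tested for binding by the complex.

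Levels of different genes were compared per length, as the RPKM of the authors, over the 9 control and non-induced libraries. *Ldb1*, *Lmo2* and *Gata1* stood at the top. The median RPKM was 337 for *Ldb1* (lowest 219, highest 439.6), 238.5 for *Lmo2* (187 to 350.2) and 224 for *Gata1* (179 to 248). *Tcf3* followed with 55.5 (28.5 to 62.4) and *Tal1* with 42.9 (35.4 to 50.1). *Ssbp3* was at 32.4 (28.9 to 36.3), *Tcf12* at 27.6 (24.4 to 42.5), *Lmo4* at 14.8 (13.2 to 19.2) and *Ssbp2* at 6.85 (5.26 to 8.08). The ranges of neighbours in this order did not overlap between *Gata1* and *Tcf3*, between *Tcf12* and *Lmo4* and between *Lmo4* and *Ssbp2*. The ranges of the other neighbours overlapped. Within a library, *Lmo2* was above *Gata1* in 7 of 9, *Tcf3* above *Tal1* in 6 of 9 and *Ssbp3* above *Tcf12* in 5 of 9. The control tables were normalized apart, and *Ldb1* and *Lmo2* were lower in the *Gfi1b* and MEL tables, which were sequenced to 9929311 to 19623105 counted reads, than in the 3 shRNA tables, with 44519414 to 57684583.

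**Figure D1:**
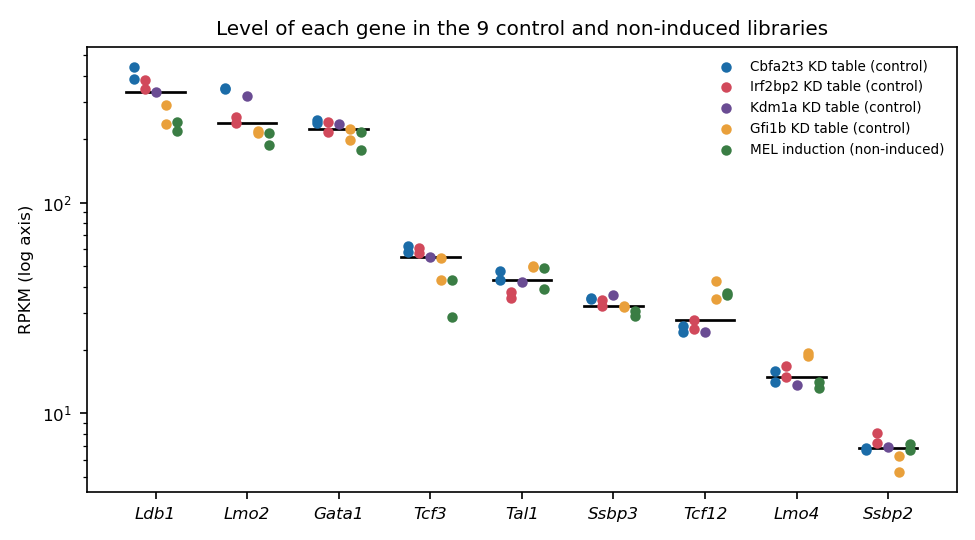
RPKM on a log axis of each of the 9 genes in the 9 control and non-induced libraries, coloured by RNA-Seq table; black lines are medians. *Ldb1*, *Lmo2* and *Gata1* form the upper group, and *Ssbp2* has the lowest median, 6.85.

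The comparisons below use CPM (counts relative to the library size, scaled by TMM and not divided by gene length), and each compares 1 gene between libraries of 1 table. A call needed both a p-value of at most 0.05 after Benjamini-Hochberg adjustment over all genes tested (quasi-likelihood test of edgeR) and an absolute log2 fold change (log2 FC) of at least 0.5. The targeted gene was checked first. *Cbfa2t3* fell from 400.3 and 427 CPM in the controls to 202 and 244 CPM with sh2 and to 123 and 145 CPM with sh3. *Kdm1a* stood at 152 CPM in its control, while 16.9 and 16.3 CPM were left after KD. *Irf2bp2* was at 116 and 119.7 CPM in the controls, against 92.2 and 94.9 CPM after KD, a log2 FC of -0.33 that stayed under the fold limit. *Gfi1b* itself was at 122 and 145 CPM in the controls, at 76.5 CPM in the library labelled *Gfi1b* KD replicate 2 and at 216 CPM in the library labelled *Gfi1b* KD replicate 1, above both controls. Across genes, that library correlated with the other libraries of its own table with r of 0.918 to 0.922, and best with induced MEL replicate 1, with r of 0.969. Erythroid, megakaryocyte and a few myeloid markers were detected, whereas the summed markers of lymphoid cells reached at most 1.36 CPM and those of mast cells at most 6.20 CPM. In such bulk samples, fewer cells of a type and less RNA per cell cannot be told apart.

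*Tal1* and *Gata1*, which encode DNA-binding factors of the complex, were higher in *Irf2bp2* KD and after MEL induction. TAL1 is the basic helix-loop-helix protein that reads the E-box portion of the composite element. *Tal1* was at 148 and 156 CPM in the *Irf2bp2* controls and reached 385 and 388 CPM after KD, with no overlap, and rose by a log2 FC of 1.34 ± 0.085 (SE, n = 2 and 2 libraries; edgeR adjusted p = 1.9e-09). In non-induced MEL cells it was at 166 and 201 CPM, and in induced cells at 621 and 683 CPM. Both induced libraries lay above both non-induced ones, and *Tal1* rose by a log2 FC of 1.83 ± 0.24 (edgeR adjusted p = 0.00021). In *Cbfa2t3* KD the controls had 180.3 and 197 CPM of *Tal1*, the sh2 libraries 292 and 287 CPM and the sh3 libraries 277 and 265 CPM. All 4 KD libraries lay above both controls, and *Tal1* was the single gene of the 9 that was called there, with a log2 FC of 0.57 ± 0.065 (edgeR adjusted p = 0.00098). The hairpins did not differ detectably for *Tal1* (sh3 minus sh2 in log2 -0.10, 95% interval -0.23 to 0.04). In *Kdm1a* KD *Tal1* was lower, at 94.8 and 96.3 CPM against 179 CPM in the 1 control, a mean log2 difference of -0.90 that has no test.

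GATA1, the zinc finger factor that defines the erythroid lineage, reads the GATA portion. *Gata1* rose in *Irf2bp2* KD from 408 and 453 CPM to 652 and 677 CPM, with no overlap (log2 FC 0.63 ± 0.091, edgeR adjusted p = 2.7e-05). It rose on induction from 347 and 399 CPM to 614 and 625.1 CPM (log2 FC 0.73 ± 0.23, edgeR adjusted p = 0.031). The induced and non-induced libraries did not overlap, but this call was lost when any 1 of the 4 libraries was left out, with a log2 FC of 0.63 to 0.83 and an adjusted p of 0.061 to 0.149. In *Cbfa2t3* KD the change was small. The controls had 451 and 469 CPM and the KD libraries 524 to 556 CPM, all above the controls, and the log2 FC of 0.22 ± 0.054 passed the adjusted p (edgeR, 0.029) but not the fold limit. With 1 library left out, the log2 FC was 0.19 to 0.25, and the adjusted p did not pass each time. In *Kdm1a* KD *Gata1* was at 347 and 348 CPM against 452 CPM, a mean log2 difference of -0.38, short of the limit.

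*Gata1* and *Tal1* therefore lay on the same side of their controls in every KD library of *Cbfa2t3*, *Irf2bp2* and *Kdm1a* and in both induced libraries, and the log2 difference of *Tal1* was the larger of the pair in each of these comparisons. Over all 21 libraries, as log2 CPM minus the control mean of the same table, Pearson's r between them was 0.98. This is a description over libraries that share their controls within a table, and much of it comes from the differences between groups. Outside the 9 genes, 11044 genes passed the filter on low counts in every table. Among them, the 3 with the most similar pattern to *Gata1* were *Atg4d* (r = 0.99), *Cenpb* (0.97) and *Prdx2* (0.97). The 3 most similar to *Tal1* were *Cenpb* (0.98), *Epb4.1* (0.98), which encodes a protein of the red cell membrane skeleton, and *B4galt3* (0.97). The summed levels of erythroid and megakaryocyte markers moved with these genes in the *Irf2bp2*, *Cbfa2t3* and MEL tables. The sums are over the markers that a table lists, 6 or 7 of 7 erythroid, 4 or 5 of 5 megakaryocyte and 2 to 6 of 6 myeloid markers, and are compared within a table. The erythroid sum was 657 to 682 CPM in the *Irf2bp2* controls and 2326 to 2492 CPM in the KD, 828.8 to 837 CPM in the *Cbfa2t3* controls and 1220 to 1592 CPM in the KD, and 1298 to 1349 CPM before and 2164 to 2917 CPM after induction. In *Kdm1a* KD it was 644 to 653 CPM, against 920 CPM in the control. The megakaryocyte sum was 372 to 429 CPM in the *Irf2bp2* controls and 781 to 797 CPM in the KD, 405 to 420 CPM in the *Cbfa2t3* controls and 483 to 595 CPM in the KD, and 374 to 537 CPM before and 1155 to 1357 CPM after induction. In *Kdm1a* KD it was 281 to 336 CPM against 338 CPM in the control, and the myeloid sum was 180.0 to 188 CPM against 121 CPM. The myeloid sum was also higher in *Irf2bp2* KD (118 to 125 CPM against 81.6 to 86.6 CPM), and it was lower in *Cbfa2t3* KD (103 to 119 CPM against 125 to 132 CPM) and on induction (12.1 to 28.6 CPM against 43.2 to 85.9 CPM). The part of these markers' cell states in the levels of *Gata1* and *Tal1* was not tested.

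**Figure D2:**
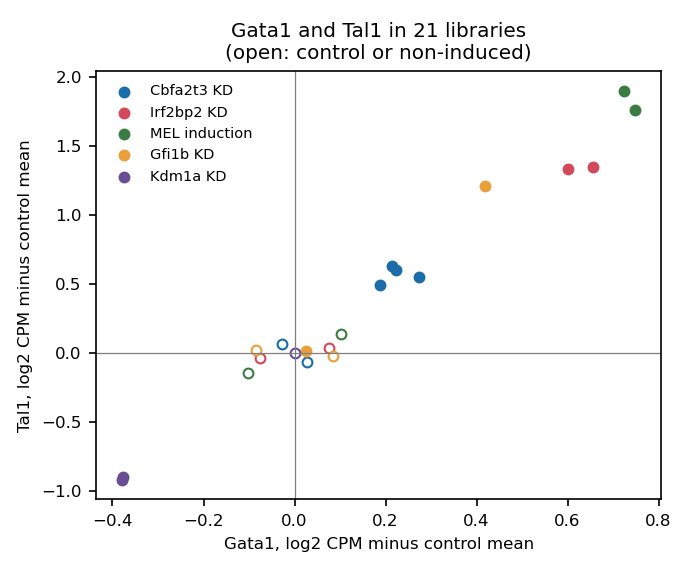
*Tal1* against *Gata1* in 21 libraries, each as log2 CPM minus the mean of the control or non-induced libraries of the same table; open circles are controls and non-induced cells. Induced, *Irf2bp2* KD and *Cbfa2t3* KD libraries lie to the upper right and both *Kdm1a* KD libraries to the lower left; 1 *Gfi1b* KD library lies with the controls and the other to the upper right.

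Binding sites were assigned to the gene with the nearest protein-coding transcription start site (TSS) within 1 Mb, with genes placed by the GENCODE annotation of mm9. Every one of the 9 genes had at least 1 site, against 45.1% of 10901 genes tested in *Cbfa2t3* KD, and 6 of 9 had a site occupied by ETO2 (ETO2-only or shared), against 20.4%. *Gata1* (chrX:7536386-7555197, minus strand) had 9 sites, 5 ETO2-only and 4 shared, and no IRF2BP2-only site. As many sites were found at 0.697% of genes. However, 8 of the 9 abut each other between 7540969 and 7548996, so they form 2 separate regions, which 19.3% of genes reach. The strongest, a shared site centred 3574 bp upstream of the annotated transcript start at 7545036, was enriched 61.4-fold over IgG, and the shared site centred 507 bp upstream of that start, which holds *Gata1* match 3 above, was enriched 35.5-fold. The GENCODE gene begins at a more distal first exon, so the annotation places these 8 sites within introns. *Tal1* (chr4:114729031-114744360, plus strand) had 3 IRF2BP2-only sites nearest to it, enriched 3.0- to 13.5-fold, at 8386 bp upstream and in introns 353 and 1255 bp downstream of the start. The last of these is centred 130 bp upstream of a further annotated transcript start, at 114730416. A shared site at chr4:114768023-114768760, enriched 70.0-fold, lies 39471 bp downstream of the *Tal1* start, and its nearest start is that of *Pdzk1ip1*. An erythroid enhancer of *Tal1* is known from the region beyond *Pdzk1ip1*. Such sites nearest to other genes were listed from a window of 50 kb around each gene, which was chosen after the files had been seen. A fold in the list does not say which antibody it belongs to.

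**Figure D3:**
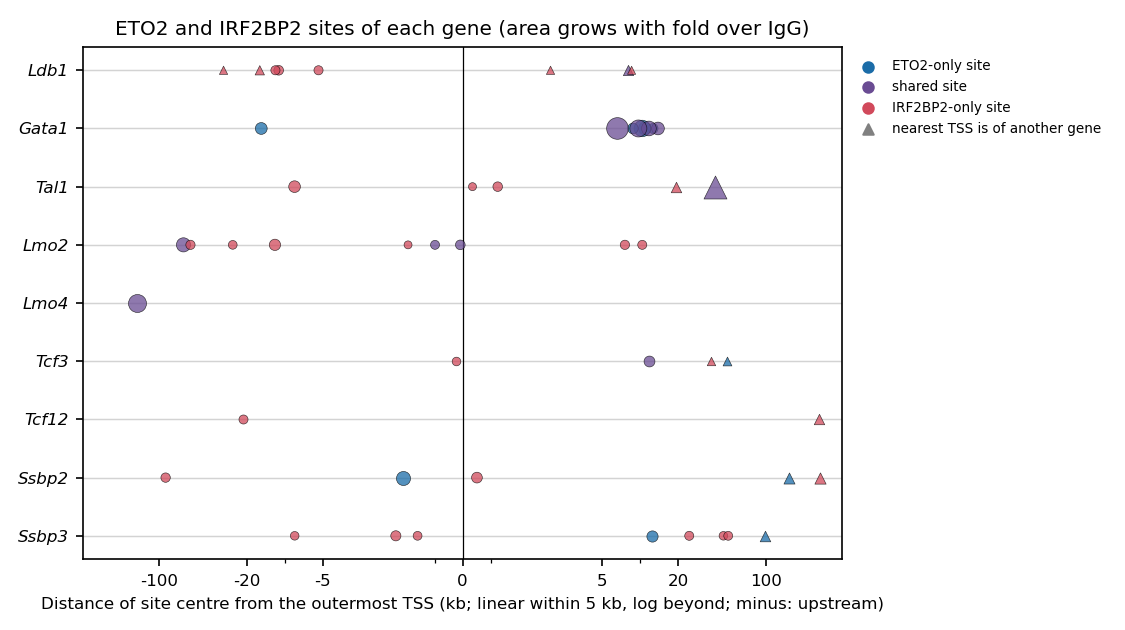
Position of the ETO2 and IRF2BP2 sites of each gene relative to its outermost annotated start, in kb (linear within 5 kb, log beyond); symbol area grows with the fold over IgG and triangles are sites whose nearest start is that of another gene. ETO2-occupied sites crowd at *Gata1*, and the sites of *Tal1* with the exception of the one 39471 bp downstream are IRF2BP2-only.

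The E proteins pair with TAL1 on the E-box portion. *Tcf12* (HEB) was at 122 and 111 CPM in the *Irf2bp2* controls, against 54.7 and 54.8 CPM after KD. The groups did not overlap, and *Tcf12* fell by a log2 FC of 1.09 ± 0.084 (edgeR adjusted p = 2.2e-08). It did not pass the test in *Cbfa2t3* KD, where the controls had 115 and 109 CPM and the KD libraries 100.2 to 106 CPM (log2 FC -0.11), nor on induction, with 154 and 163 CPM before and 137 and 177 CPM after (log2 FC -0.02). In *Kdm1a* KD it was at 97.6 and 94.2 CPM against 110.3 CPM. *Tcf3* (E2A) was at 202 and 212 CPM in the *Irf2bp2* controls and 179 and 163 CPM in the KD, and its log2 FC of -0.28 ± 0.085 passed the adjusted p (edgeR, 0.0135) but not the fold limit. With 1 library left out, this log2 FC was -0.34 to -0.21, and the adjusted p did not pass each time. In the other comparisons *Tcf3* did not pass. *Tcf12* (chr9:71692059-71959626, minus strand) had a single site nearest to it, an IRF2BP2-only site 21454 bp upstream with a fold of 5.6, and a further IRF2BP2-only site in an intron, 263217 bp from its start, is nearest to *Cgnl1*. *Tcf3* (chr10:79872259-79896392, minus strand) had a shared intronic site with a fold of 10.8 and an IRF2BP2-only site 246 bp upstream of its start with a fold of 4.5. The shared site is centred 64 bp upstream of a further annotated transcript start, at 79884605.

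LMO2 bridges LDB1 to the DNA-binding factors. *Lmo2* fell on MEL induction from 316 and 281 CPM to 123 and 83.3 CPM. Both induced libraries lay below both non-induced ones, with a log2 FC of -1.53 ± 0.26 (edgeR adjusted p = 0.0011). It was lower in *Kdm1a* KD as well, at 271 and 290 CPM against 490 CPM, a mean log2 difference of -0.80 without a test. It did not pass in *Irf2bp2* KD, with 359 and 382 CPM in the controls and 372 and 393 CPM in the KD (log2 FC 0.05). In *Cbfa2t3* KD the controls, at 527 and 530 CPM, lay above the sh2 libraries (484 and 473 CPM) and below those with sh3 (558 and 588 CPM). The sh3 libraries were higher than the sh2 libraries by 0.26 ± 0.055 in log2 (edgeR adjusted p = 0.011), under the fold limit, and without sh3 replicate 2 the adjusted p was 0.11. *Lmo2* (chr2:103798143-103822035, plus strand) had 9 sites in 8 separate regions, as many regions as 0.596% of genes, with 3 shared and 6 IRF2BP2-only sites. The shared site 64068 bp upstream was the strongest, at 22.6-fold, and the other shared sites were at 83 and 987 bp upstream of the start, at 7.25-fold and 5.44-fold.

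LMO4 is a related LIM-only adaptor that also binds LDB1. *Lmo4* was not called in the replicated comparisons with all libraries, and its values in *Gfi1b* KD, where the 2 KD libraries differ, are given with that comparison below. In *Kdm1a* KD it was at 29.5 and 32.6 CPM against 21.9 CPM, a log2 difference of 0.43 and 0.58 in the 2 libraries, so that only replicate 2 was past the limit. On induction it was at 31.1 and 28.6 CPM against 23.3 and 23.0 CPM (log2 FC 0.37). In *Irf2bp2* KD it was at 19.5 and 23.9 CPM against 23.1 and 25.7 CPM and in *Cbfa2t3* KD at 20.7 to 23.4 CPM against 22.3 and 24.3 CPM. Its single site, shared and enriched 40.5-fold, lies 151016 bp upstream of *Lmo4* (chr3:143851494-143868184, minus strand) and holds both motif matches given above.

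*Ldb1*, the core of the complex, was not called in any comparison. Its controls in *Cbfa2t3* KD had 749 and 851 CPM and the KD libraries 832 to 975 CPM, with overlap, for a log2 FC of 0.17 (95% interval -0.01 to 0.35). All 4 KD libraries lay above the same-numbered control. With the replicate block the log2 FC was 0.17 (edgeR adjusted p = 0.13), and with sh3 alone it was 0.22 (edgeR adjusted p = 0.036), both under the fold limit. In *Irf2bp2* KD it was at 663 and 733 CPM in the controls and 683 and 696 CPM in the KD (log2 FC -0.02, 95% interval -0.21 to 0.17). On induction it was at 392 and 456 CPM before and 363 and 345 CPM after (log2 FC -0.26, 95% interval -0.76 to 0.24), and in *Kdm1a* KD at 741 and 708 CPM against 648 CPM. The intervals of *Cbfa2t3* KD and *Irf2bp2* KD lay within the limit of 0.5, and that of induction did not. *Kdm1a* KD, with 1 control, has no interval. The 3 genes outside the 9 most similar in pattern to *Ldb1* were *Gna12* (r = 0.89), *Fam65a* (0.88) and *2310039H08Rik* (0.88), over the same 21 libraries. *Ldb1* (chr19:46107083-46119704, minus strand) had 3 sites nearest to it, IRF2BP2-only and upstream, with folds of 5.82 to 7.25, and within the gene a shared site of 9.09-fold in an intron, whose nearest start is that of *Pprc1*.

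The SSBP proteins stabilise LDB1. *Ssbp2* rose on induction from 27.8 and 31.2 CPM to 63.8 and 70.3 CPM, with no overlap (log2 FC 1.19 ± 0.25, edgeR adjusted p = 0.0042), and it was lower in *Kdm1a* KD, at 20.9 and 19.4 CPM against 29.7 CPM (mean log2 difference -0.56, no test). In *Irf2bp2* KD it was at 37.7 and 41.0 CPM against 30.7 and 33.9 CPM, and the log2 FC of 0.28 passed the adjusted p (edgeR, 0.018) but not the fold limit. With 1 library left out, this log2 FC was 0.22 to 0.37, and the adjusted p did not pass each time. *Ssbp3* in *Irf2bp2* KD was at 139 and 152 CPM against 102 and 108 CPM. The groups did not overlap, and the log2 FC of 0.47 ± 0.084 (edgeR adjusted p = 0.0002) was just under the fold limit, which it passed without WT replicate 2 (0.52) or without KD replicate 1 (0.54). On induction *Ssbp3* was at 121 and 119 CPM against 93.5 and 92.1 CPM (log2 FC 0.38) and did not pass. In *Cbfa2t3* KD all 4 KD libraries lay above both controls for both genes, with log2 FCs of 0.27 for *Ssbp2* and 0.21 for *Ssbp3* that did not pass the test. The sh3 libraries were higher than the sh2 libraries by 0.23 for *Ssbp2* (edgeR adjusted p = 0.049) and by 0.20 for *Ssbp3* (edgeR adjusted p = 0.033), both under the fold limit. These adjusted p-values rose above 0.05 for *Ssbp2* without any 1 of sh2 replicate 2 and the sh3 libraries (0.17 to 0.19), and for *Ssbp3* without any 1 of sh2 replicate 1 and the sh3 libraries (0.11 to 0.17). *Ssbp2* (chr13:91599888-91843034, plus strand) had an ETO2-only site of 22.5-fold 2133 bp upstream and 2 IRF2BP2-only sites. *Ssbp3* (chr4:106583306-106722299, plus strand) had 6 IRF2BP2-only sites and the ETO2-only site whose composite motif is given above.

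**Figure D4:**
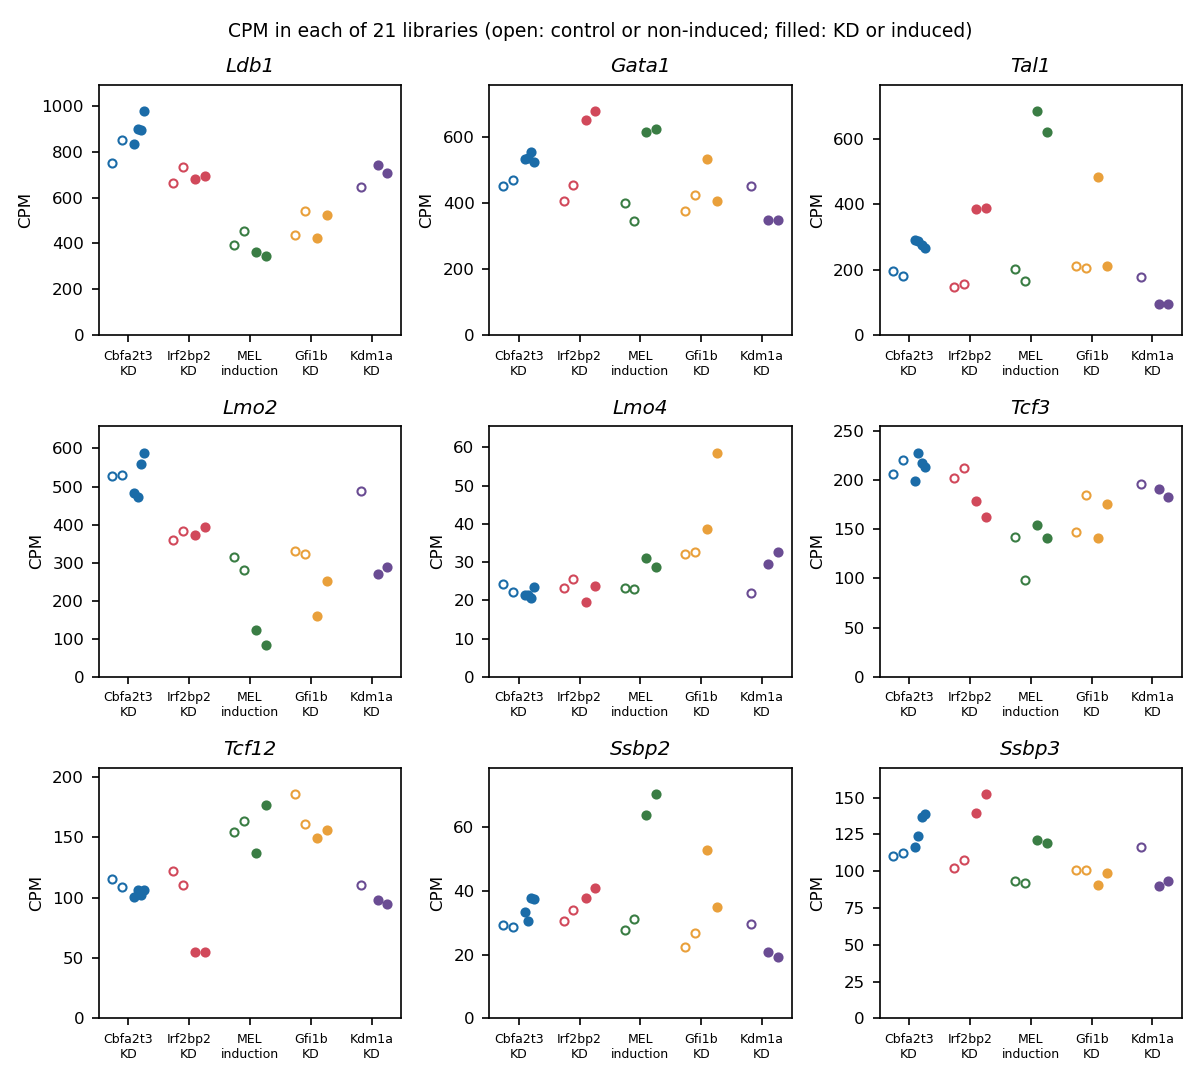
CPM of the 9 genes in each of the 21 libraries; open circles are control or non-induced libraries and filled circles KD or induced libraries, and each axis starts at 0. Within their own table, the induced libraries lie above the non-induced ones for *Tal1* and *Ssbp2* and below them for *Lmo2*, and the *Irf2bp2* KD libraries lie below their controls for *Tcf12*.

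By count, 1 of the 9 genes was called in *Cbfa2t3* KD, where 5.74% of all 12537 genes tested were called, and this 1 was higher (2.99% of all genes were called higher and 2.75% lower). In *Irf2bp2* KD 3 of 9 were called, 2 higher and 1 lower, against 22.5% of all 12329 genes (10.1% higher and 12.5% lower). After induction 4 of 9 were called, 3 higher and 1 lower, against 27.2% of 11713 genes (12.4% higher and 14.8% lower). In *Kdm1a* KD 3 of 9 had both KD libraries past the limit, all lower, against 22.9% of 12628 genes (13.1% higher and 9.8% lower), with no test. In an alternative edgeR fit the spread came from the 2 KD libraries alone, so that of the control stayed unknown. *Lmo4* had a log2 FC of 0.50 there, with only KD replicate 2 past the limit by itself. The counts are small. Over both directions, those in *Irf2bp2* KD, in *Kdm1a* KD and on induction are not far from the share of all genes. The count in *Cbfa2t3* KD is a single gene. The median absolute log2 FC of the 9 genes was 0.17 in *Cbfa2t3* KD, 0.28 in *Irf2bp2* KD and 0.38 on induction, beside 0.13, 0.28 and 0.54 for all genes. It was 0.23 in *Gfi1b* KD, beside 0.25 for all genes, and 0.38 in *Kdm1a* KD, beside 0.28, with 7 of the 9 genes lower. Groups that did not overlap were found for 5 of 9 genes in *Cbfa2t3* KD (37.8% of all genes), 6 of 9 in *Irf2bp2* KD (74.1%) and 7 of 9 on induction (67.3%). With 1 control library, the same held for 9 of 9 in *Kdm1a* KD (88.8%), and it held for 5 of 9 in *Gfi1b* KD (39.2%).

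**Figure D5:**
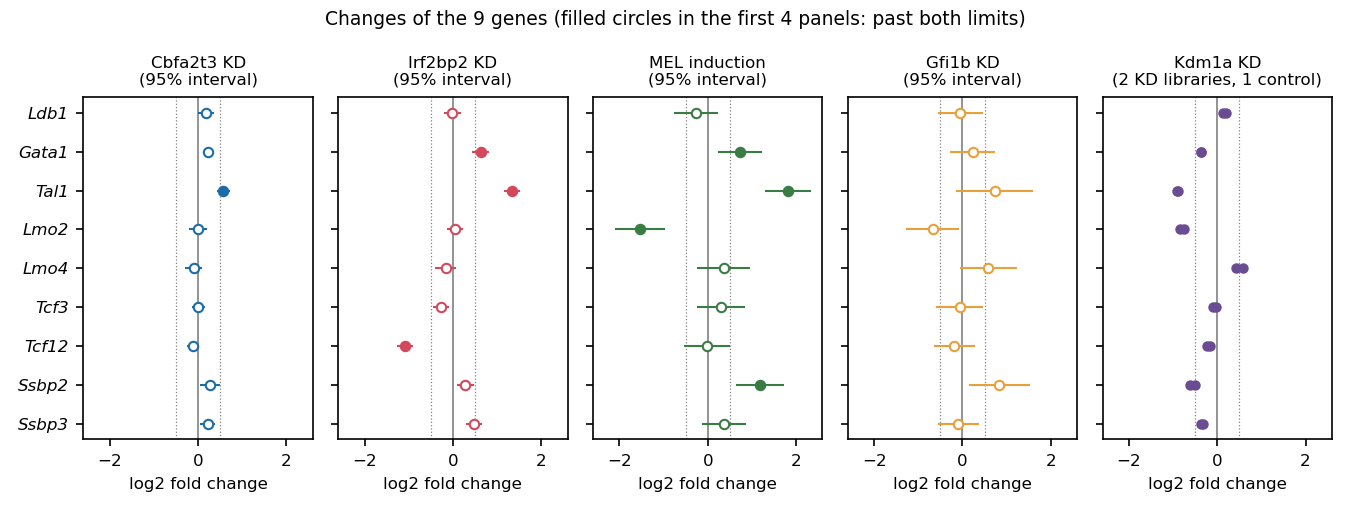
Log2 FC of the 9 genes with its 95% interval in the 4 replicated comparisons, and the log2 ratio of each *Kdm1a* KD library to its single control; dotted lines mark the limit of 0.5 and filled circles the genes called. *Tal1* was called in the first 3 panels, *Tcf12* in *Irf2bp2* KD and *Lmo2* on induction.

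The differences between comparisons were tested in 1 fit over the 4 replicated tables. The change of *Tcf12* was lower in *Irf2bp2* KD than in *Cbfa2t3* KD by 0.97 ± 0.18 in log2 (edgeR adjusted p = 0.0147), and *Tcf12* was the single gene of the 9 past both limits, where 0.742% of all genes were. The change of *Tal1* was 0.79 higher in *Irf2bp2* KD (95% interval 0.15 to 1.42, edgeR adjusted p = 0.29), and with only these 2 tables in the fit it was 0.78 higher with an adjusted p of 0.00025. That fit leaves out both the *Gfi1b* and the MEL tables. The share of all genes called in it was not counted, and the 0.742% above belongs to the fit over all replicated tables. Against *Cbfa2t3* KD, the change on induction was higher by 1.21 ± 0.30 for *Tal1* (edgeR adjusted p = 0.010) and by 0.87 ± 0.22 for *Ssbp2* (0.011), and lower by 1.57 ± 0.28 for *Lmo2* (0.0019), while 24.4% of all genes were called. For *Gata1* this difference was 0.46 (95% interval 0.10 to 0.82, edgeR adjusted p = 0.058). Between the *Cbfa2t3* hairpins none of the 9 was past both limits, while 3.71% of all genes were, and 3 of 9 had an unadjusted p under 0.05 in edgeR, as did 3557 of 12537 genes. *Kdm1a* KD, with 1 control, was left out of these tests.

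In *Gfi1b* KD edgeR called none of the 9 genes and 0 of 11190 genes in all. DESeq2 called 59 genes and none of the 9, and at an unadjusted p under 0.05 edgeR gave 784 genes, 2 of them of the complex. The 2 libraries labelled KD stood apart. *Tal1* was at 212 and 206 CPM in the controls, at 483 CPM in the library labelled KD replicate 1 and at 211 CPM in KD replicate 2. *Lmo2* was at 331 and 324 CPM in the controls and at 159 and 251 CPM in these libraries, and *Ssbp2* at 22.5 and 26.7 CPM against 52.9 and 34.8 CPM. *Lmo4* was at 32.01 and 32.6 CPM in the controls, at 38.6 CPM in the library labelled KD replicate 1 and at 58.5 CPM in KD replicate 2. The library labelled KD replicate 1 thus held the highest *Tal1* and *Ssbp2* and the lowest *Lmo2* of its table, and its erythroid markers (6 listed) summed to 2166 CPM, against 669 to 737 CPM in the controls and 698 CPM in KD replicate 2. Its megakaryocyte markers (4 listed) summed to 908 CPM, against 226 to 292 CPM in the controls and 178 CPM in KD replicate 2. Without the library labelled KD replicate 1, *Lmo4* alone of the 9 genes was called (log2 FC 0.86, edgeR adjusted p = 0.0029; 396 genes in all). Without KD replicate 2, *Tal1* (1.19), *Lmo2* (-1.07) and *Ssbp2* (1.09) were called, among 3148 genes. These values are therefore those of libraries as labelled, and which of them stands for loss of *Gfi1b* was not tested.

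Among 28 genes that act beside the complex, chosen for their roles, 22 were tested in *Cbfa2t3* KD and 6 were called, 2 higher and 4 lower, beside 5.74% of all genes. The list holds the targeted genes themselves, and *Cbfa2t3* and *Kdm1a* are among the genes counted in their own KD. The 4 largest changes were those of the targeted *Cbfa2t3* (-1.21), of *Cbfb* (-0.84), the partner subunit of RUNX1, of *Id1* (-0.76), an inhibitor that sequesters E proteins, and of *Tcf4* (-0.60), another E protein. In *Irf2bp2* KD 11 of 22 were called, 7 higher and 4 lower, beside 22.5% of all genes. The 4 largest were *Id3* (-1.73), at only 0.353 CPM in the controls, *Cbfb* (-1.54), *Tcf4* (-1.44) and *Klf1* (1.04), an erythroid activator. Of the 3 E protein genes, *Tcf4* and *Tcf12* thus fell in *Irf2bp2* KD, and *Tcf3* was lower but under the fold limit. On induction 6 of 21 were called, 5 higher and 1 lower, beside 27.2% of all genes, and the 4 largest were *Cbfb* (-2.14), *Runx1* (1.24), *Zfpm1* (1.20), which encodes the GATA1 cofactor FOG1, and *Klf1* (1.02). In *Kdm1a* KD 9 of 22 had both libraries past the limit, 5 higher and 4 lower, beside 22.9% of all genes, led by the targeted *Kdm1a* (-3.19), *Id3* (2.45, from 0.143 CPM), *Id1* (-1.28) and *Gfi1b* (1.13). *Cbfb* was lower in *Cbfa2t3* KD, in *Irf2bp2* KD and on induction, and was higher in both *Kdm1a* KD libraries (mean 0.95, no test).

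Motif content at the genes of the complex was close to that of the whole list. Of 16 ETO2-occupied sites nearest to 1 of the 9 genes, 5 held the composite motif within 100 bases of the centre, while 33.9% of 1760 ETO2-only and 32.7% of 2730 shared sites did. GATAA, which overlaps the composite motif where that ends in A, was within 100 bases of the centre in 12 of the 16, and in 81.8% of ETO2-only and 84.2% of shared sites. Of 8739 IRF2BP2-only sites, 6.29% held the composite motif and 39.1% GATAA.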

How the data were processed

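By the methods, the authors mapped RNA-Seq reads to mm9 with Tophat2 and used rpkmforgenes to count reads on RefSeq genes. The deposited tables give raw counts and RPKM per library, beside the authors' own fold changes and p-values, which were not used. The deposited list of ETO2 and IRF2BP2 sites gives for each site an adjusted p-value, a fold (ratio of ChIP to IgG reads) and a class code (a score of 0, 1 or 2), taken as ETO2-only, shared and IRF2BP2-only from the class sizes in the methods. Its 4 columns of read numbers per library were not used. Strand-specific counting is not given in the sources used here.

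Counts were fitted per table in R 4.3.3 with edgeR 4.0.16 (TMM, filterByExpr, quasi-likelihood test, Benjamini-Hochberg over all genes tested). *Kdm1a* KD has 1 control and was described without a test (an edgeR fit was an alternative), on log2 CPM with a prior count of 2; a gene counted as changed where both KD libraries differed by 0.5 or more in the same direction. Checked on simulated counts, in which a log2 change of 1 was given to 200 genes, the test called 200 of 200 for *Cbfa2t3* KD, 200 for *Irf2bp2* KD, 93 for MEL induction and 0 for *Gfi1b* KD. In the same order, it called 10, 4, 8 and 0 unchanged genes. The changed genes were drawn from those above the median level, with the spread fitted to the same table. Lower genes and changes near the fold limit were therefore not checked. A total of 3 counts in a library, the floor, was 0.052 to 0.30 CPM, and all 9 genes were far above it. The precision is set by the 2 libraries of a group, and p-values measure the spread between libraries that the methods call independent biological replicates. No 2 libraries held the same values.

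Sites, motifs and sequences were taken with Python 3.11.15 and pysam 0.24.0 from the NCBIM37 (mm9) genome and GENCODE annotation. In *Cbfa2t3* KD same-numbered libraries deviated together (r of 0.28 to 0.47 over the 3 pairs of groups), with the numbers taken from the labels.

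Genes named beside the 9 were the targeted genes, in each comparison the 4 called genes of the list of 28 with the largest change (other genes of that list are named for a count or a family), and the 3 genes most similar to *Ldb1*, *Gata1* and *Tal1*. The 9 genes and all lists were chosen with earlier results of these data known. The alternatives were DESeq2 1.42.0 and its size factors, other filters on low counts, no fold limit, the replicate block, each hairpin alone, another prior count, each library left out, other tables in the joint fit, and other rules for sites.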

Additional observations from a re-analysis of the deposited data

Results flagged for a closer look

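Differences between comparisons, each by the edgeR test of the difference itself, had an adjusted p of 0.05 or less for 7 results, of which 4 were also past the fold limit. Over all genes, 0.742% passed both limits between *Irf2bp2* KD and *Cbfa2t3* KD (1 of the 9 genes), 24.4% between induction and *Cbfa2t3* KD (3 of 9) and 3.71% between the hairpins (0 of 9). The change of *Tcf12* was lower in *Irf2bp2* KD than in *Cbfa2t3* KD (log2 difference -0.965, adjusted p = 0.0147). Against *Cbfa2t3* KD, the change on MEL induction was higher for *Tal1* (1.21, adjusted p = 0.010) and *Ssbp2* (0.874, adjusted p = 0.011) and lower for *Lmo2* (-1.57, adjusted p = 0.0019). Between the *Cbfa2t3* hairpins, sh3 was higher than sh2 for *Lmo2* (0.261, adjusted p = 0.011), *Ssbp2* (0.234, adjusted p = 0.049) and *Ssbp3* (0.199, adjusted p = 0.033), all by edgeR and all under the fold limit. With 1 library left out, the adjusted p rose to as much as 0.11 for *Lmo2*, 0.19 for *Ssbp2* and 0.17 for *Ssbp3*.

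The differences of *Kdm1a* KD and *Gfi1b* KD from *Cbfa2t3* KD were not tested. In 5 cases there, all *Cbfa2t3* KD libraries lay above their control mean and both libraries of the other KD below theirs. The share of all genes that meet this rule was not counted. In *Kdm1a* KD alone, both KD libraries lay on 1 side of the single control for 88.8% of all genes. In *Kdm1a* KD the log2 ratio of means was -0.378 for *Gata1*, -0.904 for *Tal1*, -0.559 for *Ssbp2* and -0.349 for *Ssbp3*, beside 0.22, 0.57, 0.27 and 0.21 in *Cbfa2t3* KD. In *Gfi1b* KD it was -0.0909 for *Ssbp3*. For each of the 9 genes, no library stood far from the others among the 4 *Cbfa2t3* KD libraries or among the 9 control and non-induced libraries (18 checks). Groups of 2 libraries, the *Gfi1b* KD pair among them, were too small for this check.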

How the results depend on the processing

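Of the alternatives, 650 values kept direction and side of the threshold (counts: within 1.5 times), 23 passed it newly or were larger counts, 9 no longer passed it or were smaller counts and 21 changed direction. With no fold limit, 2 genes were called in *Cbfa2t3* KD (*Gata1* added) and 6 in *Irf2bp2* KD (*Ssbp3*, *Ssbp2* and *Tcf3* added). With only the 2 tables in the fit, 2 of the 9 genes differed between *Irf2bp2* KD and *Cbfa2t3* KD (*Tal1* added). The share of all genes called in that fit was not counted, so this count has no background to be read against. The share of 0.742% belongs to the fit over all replicated tables. Over the whole site, 8 of the 16 ETO2-occupied sites held the composite motif, beside 40.7% of ETO2-only and 40.3% of shared sites. With 1 library left out, 0 to 3 of the 9 genes were called in *Gfi1b* KD and 3 on induction, each time without *Gata1*. All changes of direction were in log2 values near 0: with each library left out, the ranges were -0.044 to 0.058 for *Tcf3* and -0.068 to 0.042 for *Lmo2* in *Cbfa2t3* KD, -0.085 to 0.062 for *Ldb1* in *Irf2bp2* KD, -0.23 to 0.10 for *Ldb1* and -0.25 to 0.10 for *Tcf3* in *Gfi1b* KD, -0.20 to 0.15 for *Tcf12* on induction, and between the hairpins -0.028 to 0.054 for *Gata1*, -0.046 to 0.14 for *Lmo4*, -0.033 to 0.052 for *Tcf12* and -0.078 to 0.11 for *Tcf3*. *Tcf3* was at -0.0026 with sh2 alone, *Lmo2* at 0.12 with sh3 alone, and *Tcf12* at 0.0043 on induction relative to the median of all genes, an alternative chosen after seeing the data.

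Counts over all genes moved by more than 1.5 times in *Cbfa2t3* KD (720) to 1423 with no fold limit and 1145 with sh3 alone. They moved so in *Irf2bp2* KD (2778) to 5810 with no fold limit, and in *Gfi1b* KD (0) to 59 with DESeq2 and 411 with no filter. With 1 library left out, they fell by more than 1.5 times in *Cbfa2t3* KD without either control, and rose in *Gfi1b* KD without either KD library. On induction (3187) they fell by more than 1.5 times without non-induced replicate 1 or 2 or induced replicate 2, and not without induced replicate 1. Where 1 library was left in a group, it was assumed to vary like the others. With the replicate block, 1 of the 9 genes was called in *Cbfa2t3* KD, 3 in *Irf2bp2* KD, 0 in *Gfi1b* KD and 4 on induction, and no call changed. Outside *Cbfa2t3* KD the libraries share only a number (r of 0.049, 0.044 and 0.23). The cause of these shifts was not tested. All 9 genes were above the floor of 3 counts in every library. The *Gfi1b* and MEL tables had fewer reads, and depth and spread were not separated there.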
